A study of Mus musculus with 16 samples.

Results

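Mitochondrial ribosomal proteins, whose genes carry the symbols Mrpl for the large and Mrps for the small subunit, were followed in the gastrocnemius, a muscle of the calf, of male C57BL/6N mice. They were found as the array probes, control spots excepted, whose gene name is Mrpl or Mrps followed by a number. The rule found 125 of the 41174 probes, and these named 75 genes, 46 of the large and 29 of the small subunit. The 8 cHF+ROSI mice had eaten a corn-oil-based high-fat diet (cHF) that contained, per kg, 10 mg of rosiglitazone, an insulin-sensitising drug which activates PPARγ. In the 8 cHF+F+ROSI mice the same diet and dose were combined with a concentrate of n-3 LC-PUFA, the long-chain fatty acids of fish oil, which made up 15% of the dietary lipids. In both groups feeding began at 3 months of age and lasted 8 weeks, after which the mice were fasted for 10 hours by day, offered Chow through the night and killed in the morning. The comparison sets mice with n-3 LC-PUFA in the diet beside mice without it. All of them received rosiglitazone, and no group without the drug was analysed here.

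Mitochondria keep their own ribosome, which makes only the few respiratory chain and ATP synthase subunits that mitochondrial DNA encodes. Its ribosomal RNAs come from mitochondrial DNA, whereas its proteins come from nuclear genes, are made on cytosolic ribosomes and are imported. The small subunit decodes the messenger RNA, and the large subunit forms the peptide bond and holds the exit for the new chain. Skeletal muscle, which burns both fat and sugar in its mitochondria, depends on this machinery to build its respiratory chain.

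Each array compared the Cy5-labelled RNA of 1 mouse with a common Cy3-labelled reference pool, and values are therefore given as log2 ratios to that pool. The paper describes mice on a higher rosiglitazone dose as part of the pool of its first experiment, which included cHF and cHF+F mice. It does not say whether the pool used here held them. Dyes were not swapped, and on each of the 4 slides positions 1 and 3 held cHF+ROSI and positions 2 and 4 held cHF+F+ROSI mice, so that array position and diet cannot be told apart. A probe was kept when its signal was on average at least 2 times the background in both channels, which left 19398 probes. All 6 genes fixed as skeletal muscle fibre markers were among them. Per array, the Cy5 signal exceeded the background by a median factor of 2.33 to 3.64, with the lowest value on the array of cHF+ROSI replicate 1. The slow fibre markers of cHF+F+ROSI replicate 2 lay far below those of all other mice of its group, with a mean log2 ratio of -2.09 against -0.57 in the next mouse. Of the 125 member probes 112 were kept, 68 of the large and 44 of the small subunit, and every one of the 75 genes retained at least 1 probe. The 13 others were dim, 6 of them in the Cy5 channel and 7 in the Cy3 channel alone. None of the 112 probes was saturated on any array, and each had a value in all 16 mice.

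Messenger RNA of the mitochondrial ribosomal proteins was, as a group, at nearly the same level in both groups of mice. In RNA of whole muscle, fewer cells of a type and less RNA per cell cannot be told apart. In the large subunit the median log2 fold change, cHF+F+ROSI over cHF+ROSI, was -0.0032 over 68 probes, and in the small subunit it was -0.016 over 44 probes, beside -0.0014 over all 19398 probes. Below 0 lay 54.4% of the Mrpl and 54.5% of the Mrps probes, against 50.8% of all probes. No member reached a fold change of 1.2 in either direction, a limit that 2.57% of all probes passed. The 95% interval of the log2 fold change lay wholly within a fold change of 1.2 either way for 96 of the 112 members (85.7%), as it did for 70.2% of all probes. Members also differed little between mice of the same group, with a median SD of 0.113 on the log2 scale, against 0.137 over all probes.

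In limma, the linear model fitted across all probes, 0 members passed an adjusted p of 0.05, which 3 of all probes (0.0155%) did, and 7 of the 112 members (6.25%) had an unadjusted p of up to 0.05, against 7.46% of all probes. A probe with an unadjusted p of up to 0.05 in limma is referred to as called. In 0 of the 112 members did the values of the groups not overlap at all, which held for 0.0773% of all probes in either direction and for 0.0464% with the cHF+F+ROSI mice higher. The methods' t-test gave 0 members past an adjusted p of 0.05 and 8 at an unadjusted p of up to 0.05. Of the 68 Mrpl probes 1 was called in limma, and it was higher in the cHF+F+ROSI mice (background 3.50%). Of the 44 Mrps probes 5 were called higher and 1 lower (background 3.50% higher and 3.96% lower). The Mrpl fold changes were packed more tightly than those of the Mrps probes, the middle 50% of them lying between -0.04 and 0.04 in the large and between -0.07 and 0.07 in the small subunit. For all probes the middle 50% lay between -0.06 and 0.05. With 1 probe per gene, the brightest, the median was 0.0020 for Mrpl and 0.037 for Mrps, so that the sign of the Mrps median depended on whether the additional probes of a gene were counted. These counts depended on single mice. The Mrps count of 6 was 3 without cHF+ROSI replicates 1, 3 or 4 or cHF+F+ROSI replicate 4, and 2 without cHF+F+ROSI replicates 1 or 8. It rose to 8 without cHF+ROSI replicate 7. The Mrpl count of 1 was 2 without cHF+ROSI replicates 1, 3, 4 or 6 or cHF+F+ROSI replicates 2, 5 or 6, 3 without cHF+ROSI replicate 5 or cHF+F+ROSI replicate 7, and 4 without cHF+ROSI replicate 7.

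**Figure D1:**
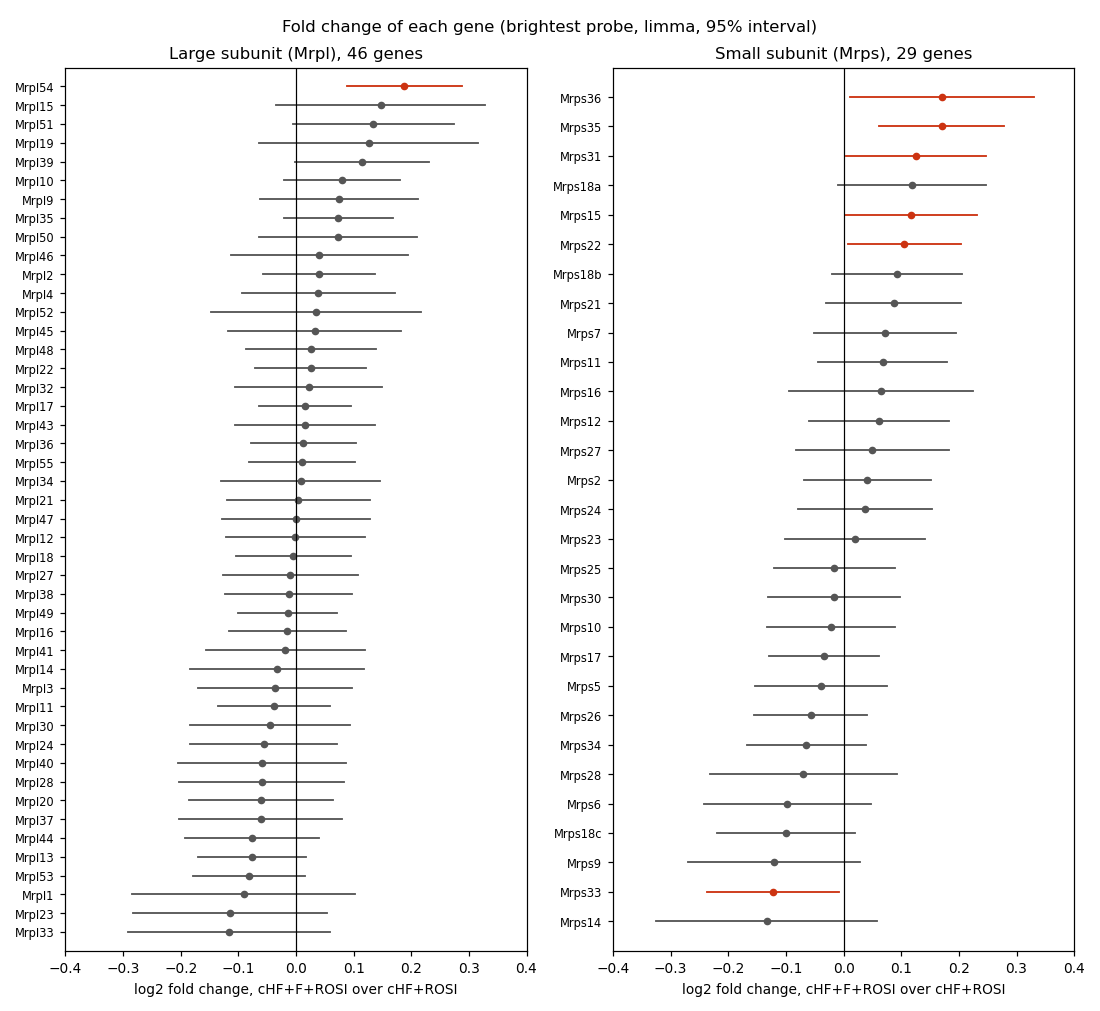
Log2 fold change (x axis, cHF+F+ROSI over cHF+ROSI) of the 46 Mrpl and 29 Mrps genes by their brightest probe, with points for the limma estimate, bars for its 95% interval, and red for the called genes. Most bars cross 0, and the 7 red genes, 1 of the large and 6 of the small subunit, lie between -0.12 and 0.19.

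In single mice the median over the Mrpl probes ran from -0.11 to 0.10 in the cHF+ROSI group and from -0.11 to 0.04 in the cHF+F+ROSI group. The group means were -0.02 ± 0.07 (SD, n = 8) and -0.03 ± 0.05 (SD, n = 8). The median over the Mrps probes ran from -0.15 to 0.07 and from -0.11 to -0.01, with means of -0.05 ± 0.07 (SD, n = 8) and -0.05 ± 0.04 (SD, n = 8). For both subunits the groups overlapped over nearly their whole range, and the distance between the group means was a small part of the spread between mice. The subunits moved together from mouse to mouse, and cHF+ROSI replicate 7 had the highest and cHF+ROSI replicate 8 the lowest median of both. After subtraction of the group means, the mean correlation between pairs of genes over the 16 mice was 0.23 within the 46 Mrpl genes, 0.20 within the 29 Mrps genes and 0.23 between the subunits, beside 0.0035 over all probes. With the 79 respiratory chain and ATP synthase genes that had a value in every mouse the members shared a mean correlation of 0.24, and with the 91 cytosolic ribosomal protein genes 0.07. Among themselves the respiratory chain and ATP synthase genes had a mean correlation of 0.33, and the cytosolic ribosomal protein genes 0.18. The points of these correlations share array, slide and labelling, and they are given as a description. Normalization within arrays centres the probes of every array, which by itself keeps the value over all probes small, so that value is no independent baseline. A median difference was also taken within each of the 4 slides, which held 2 mice of either group. It is a separate summary from the difference between the per-mouse medians above. For Mrpl it was -0.04, 0.09, -0.02 and -0.0037, and for Mrps -0.07, 0.08, -0.06 and -0.016. On slide 2 the cHF+F+ROSI mice had the higher values, and on the other 3 slides the lower ones.

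**Figure D2:**
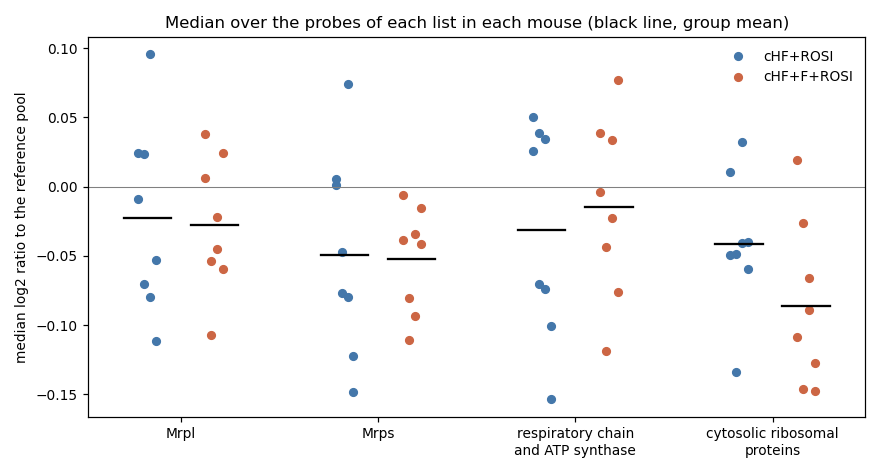
Median log2 ratio to the reference pool (y axis) over the kept probes of 4 lists in each mouse (blue points, cHF+ROSI; orange points, cHF+F+ROSI; black lines, group means). The 8 and 8 points of Mrpl and Mrps overlap almost fully, with group means of -0.02 and -0.03 for Mrpl.

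Among the large subunit genes, Mrpl54, which encodes a protein that mitochondria add to the bacterial plan of the ribosome, showed the smallest p of all members. Its single probe lies on chromosome 10 from 80667968 to 80668027 (NCBI36, mm8, as the files give all probe positions). Its log2 ratio had a lowest, median and highest value of -0.08, 0.07 and 0.19 in the cHF+ROSI mice and 0.15, 0.25 and 0.38 in the cHF+F+ROSI mice. All 8 cHF+F+ROSI mice were above the cHF+ROSI mean, and the groups overlapped only between 0.15 and 0.19. The log2 fold change was 0.19 (SE 0.05, 95% interval 0.09 to 0.29), a fold change of 1.14, with an adjusted p = 0.28 in limma, and the exact two-sided permutation test over the mice gave p = 0.000777. The difference was positive on all 4 slides, from 0.04 to 0.29. The Cy5 signal alone was 0.06 higher (adjusted p = 0.922 in limma), and the Cy3 signal of the same spot, which held the same pool everywhere, was lower on the cHF+F+ROSI arrays, with a log2 difference of -0.13 (SE 0.12). The call was lost with the Cy5 signal alone, with median centring (log2 fold change 0.13) and with scale normalization between arrays (0.13).

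The next genes of the large subunit in order of p were not called in limma, and had adjusted p-values of at least 0.678. Mrpl39, a protein with no bacterial counterpart, had a lowest, median and highest log2 ratio of -0.24, -0.09 and 0.03 in the cHF+ROSI mice and -0.19, 0.03 and 0.17 in the cHF+F+ROSI mice, with a log2 fold change of 0.11 (SE 0.06, exact permutation p = 0.0479). In 7 of the 14 other ways of processing it was called. Mrpl51, likewise found only in mitochondrial ribosomes, had -0.10, 0.33 and 0.40 beside 0.28, 0.42 and 0.59, with a log2 fold change of 0.13 (SE 0.07, exact permutation p = 0.0348). In both genes 7 of the 8 cHF+F+ROSI mice exceeded the cHF+ROSI mean, but the groups overlapped widely. Mrpl53, Mrpl15 and Mrpl13 followed on both sides of 0, at -0.08, 0.15 and -0.08 on the log2 scale (p = 0.0625, p = 0.117 and p = 0.0662, in that order, by the exact permutation test).

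Large subunit proteins with well-known roles differed little. Mrpl12, the stalk protein that also binds the mitochondrial RNA polymerase, reached log2 ratios that averaged 0.0051 ± 0.13 (SD, n = 8) without and 0.0039 ± 0.08 (SD, n = 8) with n-3 LC-PUFA. The 95% interval of its log2 fold change was -0.12 to 0.12. Mrpl3, close to the site of peptide bond formation, had log2 fold changes of -0.06, -0.04 and -0.01 by its 3 probes. Mrpl11, in the region where translation factors bind, had -0.04 (95% interval -0.14 to 0.06). Mrpl44, a protein with a ribonuclease-like fold, had probes at -0.08, 0.03 and 0.05. None of these probes was called.

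In the small subunit the clearest difference was that of Mrps35, a protein specific to the mitochondrial ribosome. Its log2 ratio had a lowest, median and highest value of -0.13, 0.01 and 0.17 in the cHF+ROSI mice and 0.06, 0.17 and 0.33 in the cHF+F+ROSI mice. All 8 cHF+F+ROSI mice were above the cHF+ROSI mean, although the groups overlapped. The log2 fold change was 0.17 (SE 0.05, 95% interval 0.06 to 0.28), a fold change of 1.13, with an adjusted p = 0.406 in limma and an exact two-sided permutation p = 0.00373. Its single probe spans 9121 bases of chromosome 6, from 147018647 to 147027767 (mm8). The difference was positive on all 4 slides, from 0.12 to 0.24, and lay in the Cy5 channel, which alone gave 0.20, while the Cy3 channel gave 0.01 (SE 0.03). Mrps35 alone of the 7 called genes stayed called in each of the 30 alternatives, in which 1 mouse was left out or the processing changed.

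Mrps22, a mitochondria-specific protein of the small subunit that is mutated in human respiratory chain disease, had values of -0.15, -0.06 and 0.02 in the cHF+ROSI mice and -0.14, 0.03 and 0.21 in the cHF+F+ROSI mice. The log2 fold change was 0.11 (SE 0.05, exact permutation p = 0.02, limma adjusted p = 0.631), and cHF+F+ROSI replicate 2 lay close to the lowest cHF+ROSI mouse. Within slides the difference was positive on 3, up to 0.24, and -0.01 on slide 1. Mrps31, another mitochondria-specific protein, had values of -0.17, 0.05 and 0.19 beside -0.02, 0.17 and 0.20, and its log2 fold change was 0.13 (SE 0.06, exact permutation p = 0.0446, limma adjusted p = 0.659). Here 6 cHF+F+ROSI mice lay close together at the top and 2 below the cHF+ROSI median. The difference was positive on 3 slides, up to 0.32, and -0.09 on slide 1. Mrps15, the counterpart of bacterial S15, had values of -0.12, -0.05 and 0.22 beside 0.02, 0.14 and 0.22, with a log2 fold change of 0.12 (SE 0.05, exact permutation p = 0.0418, limma adjusted p = 0.663). The highest mice of both groups were level, whereas 5 cHF+ROSI mice lay below the lowest cHF+F+ROSI mouse. With slide or replicate number as a block Mrps15 was not called.

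Mrps36, which despite its symbol is now known as a component of the 2-oxoglutarate dehydrogenase complex of the citric acid cycle, had values of 0.11, 0.29 and 0.51 in the cHF+ROSI mice and 0.24, 0.46 and 0.82 in the cHF+F+ROSI mice. Its log2 fold change was 0.17 (SE 0.08, exact permutation p = 0.0429, limma adjusted p = 0.633), and its second probe gave 0.07 (p = 0.305 by the same exact test). The difference was 0.48 on slide 1, where the highest mouse was, and -0.13 on slide 3. Mrps33 was the only member called lower. Its values were -0.28, -0.15 and 0.03 in the cHF+ROSI mice and -0.51, -0.22 and -0.18 in the cHF+F+ROSI mice, all 8 of the latter below the cHF+ROSI mean. The log2 fold change was -0.12 (SE 0.05, exact permutation p = 0.0168, limma adjusted p = 0.632), and the 2 other probes gave -0.11 (p = 0.0988) and -0.05 (p = 0.455) by the same exact test. Without cHF+F+ROSI replicate 2, the lowest mouse, it was -0.09 and not called, nor was it called with slide as a block. With replicate number as a block Mrps22 and Mrps36 were not called.

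**Figure D3:**
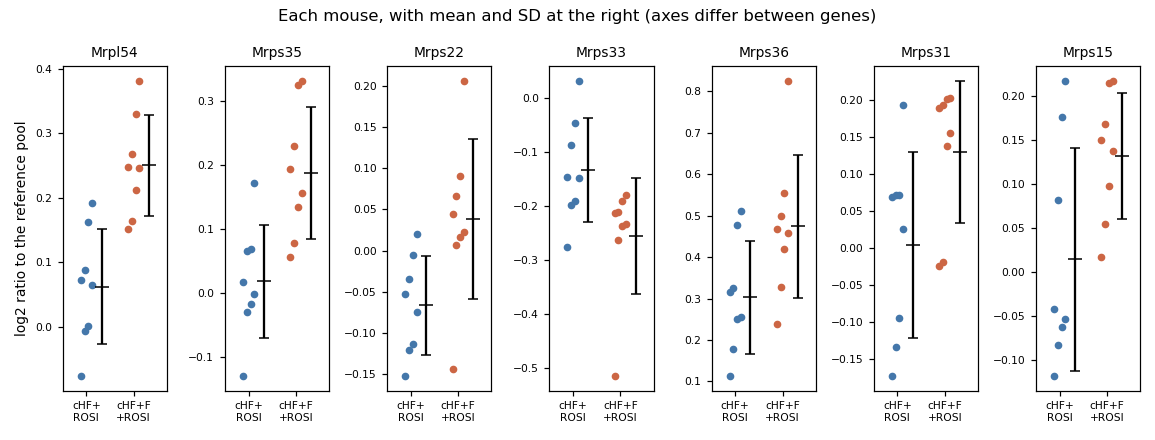
Log2 ratio to the reference pool (y axis, a separate scale for each gene) of the 7 members with an unadjusted p of up to 0.05, with a point for each mouse (blue, cHF+ROSI; orange, cHF+F+ROSI) and bars for the group mean and SD (n = 8). In no gene do the groups part fully, and in Mrps33 cHF+F+ROSI replicate 2 lies far below the rest at -0.51.

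None of these calls outlasted the adjustment, and 5 of the 7 rested on single mice. Of the 16 fits without 1 mouse, Mrpl54 and Mrps35 were called in 16, Mrps33 in 11, Mrps36 in 9, Mrps22 in 8, Mrps31 in 6 and Mrps15 in 5. Mrps33 was lost without cHF+ROSI replicates 1, 5 or 7 or cHF+F+ROSI replicates 2 or 8, with log2 fold changes from -0.12 to -0.09. Mrps36 was lost without cHF+ROSI replicates 1 to 4 or cHF+F+ROSI replicates 1 to 3, with 0.12 to 0.17. Mrps22 was lost without cHF+ROSI replicates 2, 3, 4 or 8 or cHF+F+ROSI replicates 1, 3, 4 or 8, with 0.08 to 0.10. Mrps31 was lost without cHF+ROSI replicates 3, 4, 6 or 8 or cHF+F+ROSI replicates 1 or 4 to 8, with 0.10 to 0.13. Mrps15 was lost without each of the same mice and without cHF+ROSI replicate 1, with 0.10 to 0.12. The sign of all 7 fold changes was the same in all 30 alternatives. In the Cy3 channel, where every array held the same pool, 5 of the 112 members were called between the groups, all of them higher on the cHF+F+ROSI arrays. Of all probes 3.61% were called in that channel in either direction and 3.09% were called higher, so that the calls ran mostly this way over all probes as well.

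**Figure D4:**
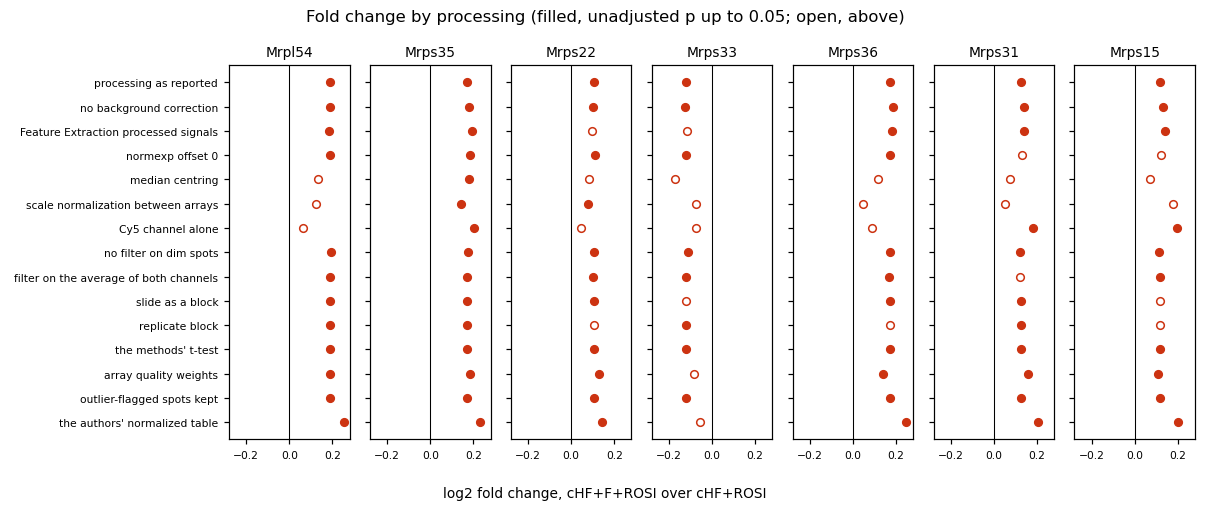
Log2 fold change (x axis, cHF+F+ROSI over cHF+ROSI) of the 7 called members as reported and under 14 other ways of processing (y axis), with filled points for an unadjusted p of up to 0.05 and open points for a larger one. All points of a gene lie on its side of 0, and only Mrps35 is filled throughout.

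Other small subunit proteins of known role were not called. Mrps12, the counterpart of the bacterial protein that governs accurate decoding, had a log2 fold change of 0.06 (95% interval -0.06 to 0.18). Mrps16, the counterpart of bacterial S16, had 0.06 (95% interval -0.09 to 0.22) and the mitochondria-specific Mrps34 -0.06 (95% interval -0.17 to 0.04). Mrps5, which lies near the path of the messenger RNA, had probes at -0.17, -0.04 and -0.01. The first of these was the most variable member probe, with an SD between mice of 0.391, while the probe of Mrpl17 varied least, with 0.0552. Of the 26 genes with more than 1 kept probe, 21 had all probes on the same side of 0. The 5 others were Mrpl44, Mrpl49, Mrpl52, Mrps18b and Mrps23, named after their values were seen, and none of them had a called probe. The probes of a gene lay a median of 0.0479 apart on the log2 scale.

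The symbols do not quite follow the subunits, since the proteins of Mrps18a and Mrps30 sit in the large subunit. With these moved and Mrps36 left out, the large subunit had 70 probes with a median of -0.0032 and 1 call, and the small subunit 40 probes with a median of -0.026 and 5 calls.

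Promoters of nuclear genes for mitochondrial proteins are known to bind nuclear respiratory factor 1 (NRF-1), ETS-type factors and YY1. Promoter windows, from 250 bases before to 50 after the start (RefSeq, GRCm38.p6), were used for 66 of the 75 genes, 72 in number. On either strand, the palindromic NRF-1 motif stood in 3 of the 72 (4.17%), beside 0.971% of 32851 promoters of all genes. The ETS letters CCGGAAGT stood in 12 (16.7%, beside 3.89%), and the YY1 letters AAGATGGCG in 7 (9.72%, beside 1.4%). At least 1 of these stood in 21 promoters (29.2%, beside 6.05%), 14 of 45 for Mrpl and 7 of 27 for Mrps. The median GC content was 58.5%, against 52.7% for all promoters, and the median ratio of observed to expected CpG was 0.819 against 0.384, so the member promoters differed from the rest in base composition as well as in these letters. Another gene started upstream on the opposite strand within 1000 bases for 25 of the 66 genes (37.9%), against 12.3% of 27025 genes. Mrpl46 and Mrps11 started 42 bases apart in this way, Mrpl43 lay 116 bases from Twnk, the mitochondrial DNA helicase, and Mrps12 147 bases from Sars2, a mitochondrial seryl-tRNA synthetase.

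Of the called genes with a promoter at hand, Mrps22 held the ETS letters, 11 bases before its start, whereas Mrps15, Mrps31, Mrps33 and Mrps36 held none of the 3. The 150 bases before the start are shown for the called genes Mrps22 and Mrps33, 1 on either side of 0, and for Mrpl39, Mrpl51 and Mrpl3, which were not called, with the NRF-1 or ETS letters in capitals and a 5′ to 3′ reading on the gene's strand.
Mrps22 (chr9:98601680-98601829, - strand): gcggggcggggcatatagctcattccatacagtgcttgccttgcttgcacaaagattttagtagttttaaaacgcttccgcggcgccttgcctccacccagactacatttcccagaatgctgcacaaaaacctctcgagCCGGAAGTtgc
Mrps33 (chr6:39810937-39811086, - strand): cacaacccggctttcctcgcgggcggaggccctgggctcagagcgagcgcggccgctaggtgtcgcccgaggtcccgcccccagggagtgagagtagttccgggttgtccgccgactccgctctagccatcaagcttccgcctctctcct
Mrpl39 (chr16:84735245-84735394, - strand): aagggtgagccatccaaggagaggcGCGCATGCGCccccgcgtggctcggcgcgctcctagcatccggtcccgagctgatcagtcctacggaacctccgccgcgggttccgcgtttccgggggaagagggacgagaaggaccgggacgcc
Mrpl51 (chr6:125192050-125192199, + strand): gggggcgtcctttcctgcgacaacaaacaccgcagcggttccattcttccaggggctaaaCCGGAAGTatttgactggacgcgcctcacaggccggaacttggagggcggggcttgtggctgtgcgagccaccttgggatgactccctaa
Mrpl3 (chr9:105053118-105053267, + strand): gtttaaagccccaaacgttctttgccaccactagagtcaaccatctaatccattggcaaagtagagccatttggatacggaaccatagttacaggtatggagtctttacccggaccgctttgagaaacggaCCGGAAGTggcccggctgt
The letters were thus present in genes with and without a call, and a match is a description of the window only.

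Among genes that work with the mitochondrial ribosome, the share of called probes lay near or below the 7.46% of all probes. The first list held 14 probes of 8 genes, for mitoribosomal proteins named otherwise and for Oxa1l, a membrane insertase that docks on the ribosome. The median log2 fold change of this list was 0.0046. In it 1 probe was called (7.14%), the brightest probe of Dap3, a GTP-binding protein of the small subunit. Its log2 ratio lay between -0.01 and 0.12 in cHF+ROSI and between 0.10 and 0.33 in cHF+F+ROSI mice, and the groups overlapped only between 0.10 and 0.12. The log2 fold change was 0.11 (SE 0.04), with adjusted p = 0.519 in limma and an exact permutation p = 0.000622, but its second probe gave 0.08 (p = 0.154 by the same test) and the Cy5 channel alone -0.05 (adjusted p = 0.958 in limma). Of the 17 probes of 12 translation factors 1 was called (5.88%) and was higher, a probe of the elongation factor Gfm1 (0.12, exact permutation p = 0.0107, adjusted p = 0.593 in limma), while its brightest probe gave 0.10 (p = 0.0592). The elongation factor Tufm had 0.08 (exact permutation p = 0.0732). The list median was 0.04, and 12 of its probes lay above 0. Of the 19 probes of 15 genes for assembly and rRNA modification 0 were called in limma, also without adjustment, 13 lay above 0 and the median was 0.028.

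Of the 27 probes of 13 genes for mitochondrial transcription and its regulators, with a median of 0.018, 1 was called higher and 1 lower (7.41% in all, beside 7.46% of all probes). Polrmt, the mitochondrial RNA polymerase, had a log2 fold change of 0.13 (exact permutation p = 0.0379, adjusted p = 0.654 in limma), which was -0.01 (adjusted p = 0.993) after scale normalization. A probe of Yy1, the factor of the YY1 letters, had -0.10 (exact permutation p = 0.0322, adjusted p = 0.656 in limma), beside -0.11 (p = 0.143) and 0.04 (p = 0.435) for its 2 other probes. Tfam, which packs mitochondrial DNA and starts its transcription, had probes at -0.03, 0.04 and 0.12. Lrpprc, which stabilises mitochondrial messenger RNA and was counted above among the translation factors, had 0.04 and 0.07. Ppargc1a, the coactivator PGC-1α that drives mitochondrial biogenesis, had 0.15 (exact permutation p = 0.412) and 0.19 (p = 0.149) and varied widely, from -1.41 to -0.25 in the cHF+ROSI mice by its brightest probe.

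Respiratory chain and ATP synthase subunits, which are assembled with the products of the mitochondrial ribosome, had a median log2 fold change of 0.02 over 104 probes, with 6 called higher and 1 lower (6.73%, beside 7.46% of all probes). The proteins of the cytosolic ribosome, which makes all other proteins of the cell, had a median of -0.06 over 140 probes. Of these 22 were called lower and 3 higher (17.9%), and 74.3% lay below 0, beside 54.5% of the Mrpl and Mrps probes. The difference between the lists was not tested. Over the 14 other ways of processing the cytosolic median ran from -0.10 to -0.013. The lowest was with median centring, with 7 called lower and 0 higher. The highest was in the authors' normalized values, with 5 lower and 4 higher. After scale normalization it was -0.02, with 1 called lower and 1 higher.

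**Figure D5:**
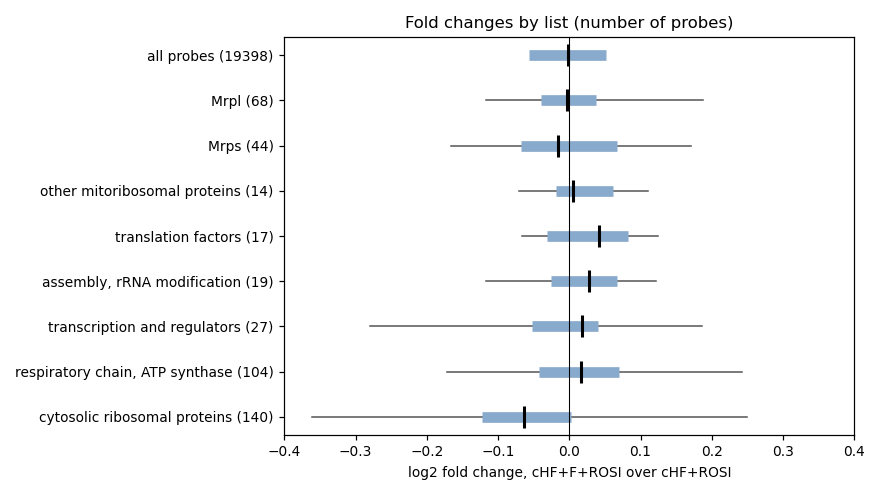
Log2 fold change (x axis, cHF+F+ROSI over cHF+ROSI) by list, with the number of probes in brackets, black ticks for the median, blue bars for the middle 50% of probes and thin lines for the full range, which is not drawn for all probes. Mrpl and Mrps centre near 0, at -0.0032 and -0.016, and the cytosolic ribosomal proteins lie below it at -0.06.

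Markers of the cell types that whole muscle can hold were compared in the same way. Of the 6 endothelium marker probes 4 were called lower with n-3 LC-PUFA, beside 3.96% of all probes. The mean over the list lay between -0.30 and -0.02 in cHF+ROSI and between -0.59 and -0.20 in cHF+F+ROSI mice. None of the probes of skeletal muscle fibre, slow fibre, adipocyte, macrophage or red blood cell markers was called, beside 7.46% of all probes. Yet of the 14 slow fibre probes 12 lay below 0, beside 50.8% of all probes. Their median log2 fold change was -0.34, with a median SE of 0.36. A fold change of 1.2 either way was reached by 8 of them, beside 2.57% of all probes. The mean of the slow fibre markers varied widely, from -1.22 to 0.68 in cHF+ROSI and from -2.09 to 0.29 in cHF+F+ROSI mice. The part of these differences in the values of the mitochondrial ribosomal proteins was not tested.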

How the data were processed

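Total RNA of the gastrocnemius of individual mice was labelled with Cy5 and hybridised with a Cy3-labelled reference pool to 16 Agilent arrays of 44K format, 4 on each of 4 slides. The deposited scanner files hold intensities per spot, extracted by the authors with Feature Extraction (10.5.1.1 per the file headers, 10.5.5.1 per the labels). The authors also deposited a table of normalized log2 values, used here only as an alternative.

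Median intensities were corrected with normexp (offset 50), spots other than controls whose signal averaged 2 or more times the background in each channel were used, spots flagged as outliers were removed, and ratios were normalized by loess within arrays. Spots of a probe were averaged. Groups, taken from the labels, were compared in limma 3.58.1 under R 4.3.3, p-values were adjusted over 19398 probes by the method of Benjamini and Hochberg, and the genes named also with an exact two-sided permutation test over mice. With 8 against 8 mice the smallest exact p is 0.000155. The number of arrays limits the precision. The analysis was tested on these arrays with the group labels mixed and the Cy5 signal of randomly chosen probes raised or lowered 2-fold. That is a larger change than any member showed.

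The members and lists were chosen with earlier results of these data known. The genes named were those with a probe at an unadjusted p of up to 0.05, the 6 Mrpl and 6 Mrps genes of smallest p by the brightest probe, 9 fixed by role, any whose probes disagreed in sign with 1 past the threshold (0 found), and in the related lists those past the threshold plus Tufm, Tfam, Polrmt, Lrpprc, Ppargc1a and Dap3. Of the related lists 5 genes were not found by name: Taco1, Noa1, Mettl17, Mpv17l2 and Malsu1. Of the 125 member probes 108 carried an accession found in RefSeq, all under the same symbol. Promoters of 9 genes were not used here.

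Alternatives were other background corrections and normalizations, the Cy5 channel alone, other filters, slide or replicate number as a block, the methods' t-test, array weights, the authors' table and the omission of each mouse. Replicate numbers were tested for pairing. Same-numbered mice had correlations from -0.34 to 0.73, 4 of 8 over 0.1, so the numbers were used as names only. The cHF+ROSI mice were labelled and hybridised also in another experiment, which was not analysed here.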

Additional observations from a re-analysis of the deposited data

Results flagged for a closer look

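In 15 of 84 groups of 8 mice or arrays, the highest or lowest value stood further from the rest than Dixon's 95% limit for 8 values allows. Chance gives about 1 in 20, or 4.2 groups. Of these, 7 belonged to cHF+F+ROSI replicate 2. Its log2 ratio was -0.51 for Mrps33 (next -0.26), -0.35 for Mrpl11 (next -0.14), -0.26 for Mrpl44 (next -0.05) and -0.23 for Lrpprc (next -0.0015), while Mrps16 was high at 0.41 (next 0.08). In the same mouse the mean of the skeletal muscle fibre markers was -0.17 (next 0.20) and that of the slow fibre markers -2.09 (next -0.57).

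On the array of cHF+ROSI replicate 1 the median Cy5 signal was 2.33 times the background (next 3.02), Mrpl51 stood low at -0.10 (next 0.23) and Tfam high at -0.49 (next -0.93). Mrpl11 was high in cHF+ROSI replicate 7 at 0.057 (next -0.08), whose array also had the largest share of outlier-flagged spots in its group, 0.39% (next 0.323%). Dap3 was low in cHF+ROSI replicate 3 at -0.015 (next 0.07), and Tufm high in cHF+ROSI replicate 6 at 0.22 (next 0.09). The mean of the red blood cell markers was high in cHF+F+ROSI replicate 6 at 1.19 (next 0.06).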

How the results depend on the processing

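No member passed an adjusted p of 0.05 in limma or under any alternative run. The count of Mrpl probes at an unadjusted p of up to 0.05, 1 as reported, was 2 without background correction, without a filter on dim spots, with the methods' t-test and in the authors' table, 3 with the Cy5 channel alone and with array weights, 0 with median centring, and 1 to 4 without 1 mouse. The Mrps count, 6 as reported, was 1 with median centring, 2 with scale normalization, 3 with the Cy5 channel alone, and 2 to 8 without 1 mouse. The replicate block, which pairs mice that share only a number, gave 2 Mrpl and 3 Mrps probes and 1428 of all probes. Of the 8 cHF+F+ROSI mice, 1 correlated best with the cHF+ROSI mouse of its own number. Over all probes the count of 1447 was 820 with median centring, 956 with scale normalization and 1178 to 1979 without 1 mouse. The Mrpl median ran from -0.046 with median centring to 0.057 in the authors' table. In the same settings the Mrps median ran from -0.044 to 0.033. Within slide 2 the Mrpl median was 0.088 and the Mrps median 0.078. Without 1 mouse the Mrpl median was -0.017 to 0.015 and the Mrps median -0.026 to 0.0029. Over the 14 other ways of processing the Mrpl median was below 0 in 9 and the Mrps median in 10, so neither sign was stable. Slide or replicate number as a block and the methods' t-test are among these. They could not move either median, which stayed at -0.0032 and -0.016. Dap3 changed sign with the Cy5 channel alone (-0.051, adjusted p = 0.958 in limma) and Polrmt with scale normalization (-0.011, adjusted p = 0.993 in limma). The cause was not tested. With slide as a block 1 Mrpl and 5 Mrps probes were called. The alternatives by structure and by RefSeq transcript were added after seeing the data, and the latter gave 1 call among 64 Mrpl and 6 among 42 Mrps probes. Of the 13 member probes left out, 5 were not well above background on any array.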
